A study of Mus musculus with 7 samples.

Results

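Neuropeptide receptors are the G protein-coupled receptors through which peptides such as somatostatin, neuropeptide Y, opioids, tachykinins and vasopressin act on neurons, glia and peripheral tissues. They were chosen by gene symbol, from a list of symbol beginnings covering these receptors, and made up 44 of the 382 CpG probes on a custom Illumina GoldenGate methylation array, with 1 probe per gene and 16 ligand families. The array reads bisulphite-converted DNA and gives for each CpG a beta value, the methylated fraction from 0 to 1. DNA of C57BL/6 mice was run on 7 arrays: A2B5_mas and PSA-NCAM_mas carry the tissue label brain, and Met_0, Met_25, Met_50, Met_75 and Met_100 carry the tissue label DNA. The Met numbers are taken to be the nominal percentage of methylated DNA in a graded control series, an assumption that no label states. The A2B5 antibody recognises gangliosides on glial precursors, and PSA-NCAM, the cell adhesion molecule NCAM carrying polysialic acid, is found on migrating young neurons. The labels give no brain region, isolation method, age, sex or number of animals, and do not explain the ending of the brain titles. Each title is 1 array, so the brain values have no replicate error and no test was possible between brain arrays or between brain and Met arrays. Only the trend over the 5 Met arrays could be tested.

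These receptors couple to inhibitory, stimulatory or calcium-mobilising G proteins, and most act as modulators of synaptic transmission and hormone release. Within a family the receptors for 1 ligand are encoded by separate genes, often with quite different tissue distributions: some members are mainly neuronal and others serve mainly gut, kidney, adrenal or smooth muscle. CpGs in the promoters of genes used in a tissue are usually unmethylated, and CpG-rich promoters are often unmethylated whether or not the gene is used. A beta value at 1 CpG is therefore a measure of DNA methylation at that base and not of receptor expression. The position of the measured CpG relative to each gene is not stated in the labels.

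Most neuropeptide receptor CpGs had beta values under 0.2 in both brain arrays, as did most of all 382 probes. The median beta value of the 44 members was 0.0996 in A2B5_mas and 0.0950 in PSA-NCAM_mas, beside 0.101 and 0.0970 over all 382 probes. Low values, under 0.2, were found at 34 members in A2B5_mas (77.3%, beside 66.2% of all probes). In PSA-NCAM_mas 35 members were low (79.5%, beside 69.4% of all probes). The same 34 members were low in both arrays, where 66% of all probes were. Values over 0.8 were found at 3 members in A2B5_mas (6.82%, beside 4.71% of all probes). In PSA-NCAM_mas 2 members were over 0.8 (4.55%, beside 2.88% of all probes). In each array 7 members were intermediate (15.9%, beside 29.1% of all probes in A2B5_mas and 27.7% in PSA-NCAM_mas). The upper quartile was 0.170 in A2B5_mas and 0.160 in PSA-NCAM_mas for the members, beside 0.293 and 0.275 over all probes. Whether these shares differ from those of the other probes was not tested, since members of a gene family are not replicates.

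**Figure D1:**
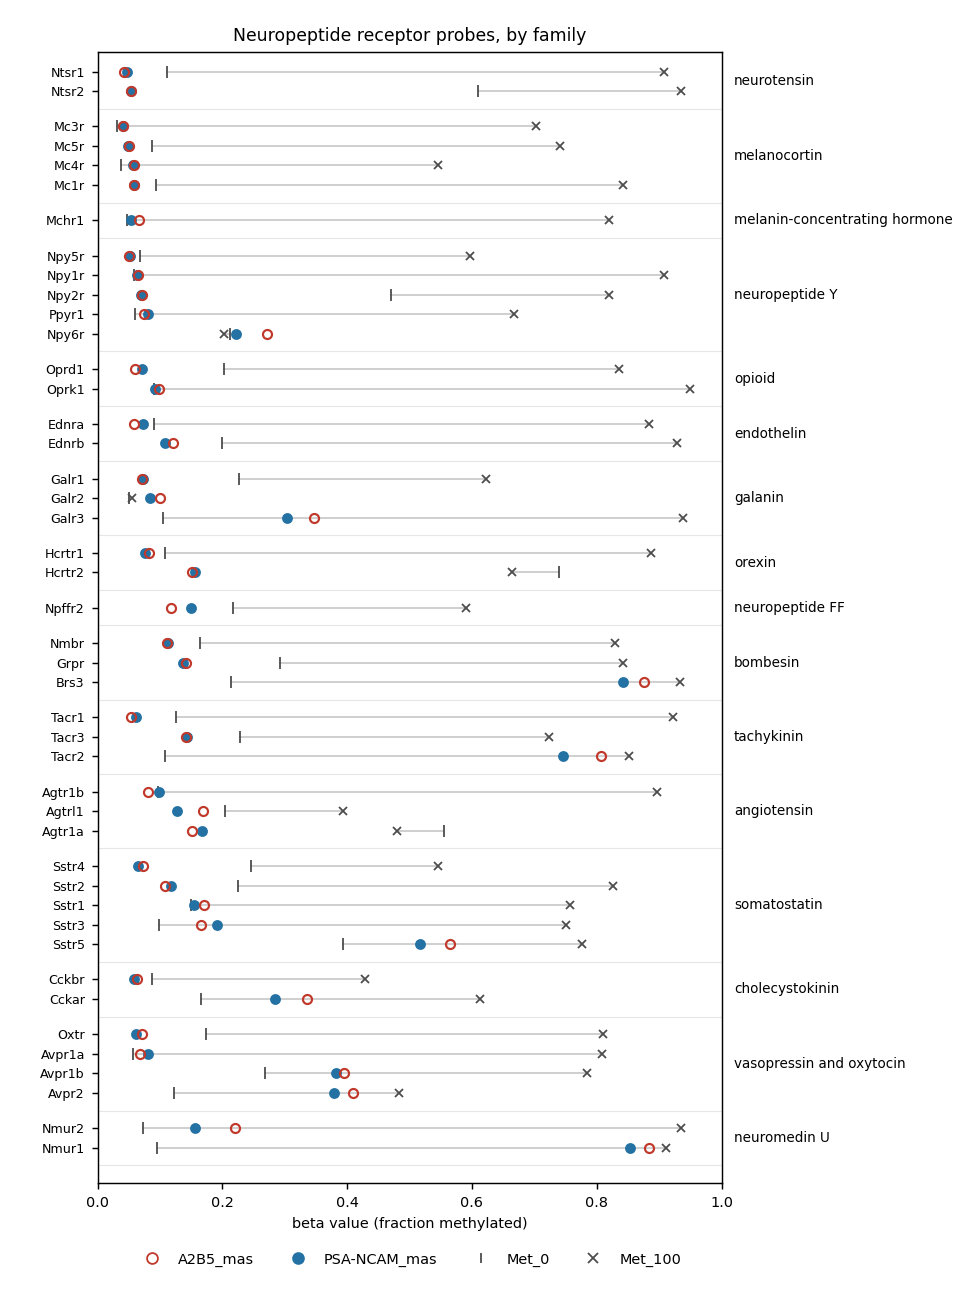
Beta values (x axis, fraction methylated) of the 44 receptor probes (rows), grouped by ligand family and ordered by the family median in the brain arrays. Open red circles are A2B5_mas, filled blue circles PSA-NCAM_mas, vertical ticks Met_0 and crosses Met_100, with a grey line joining the last pair; each symbol is 1 array without error. Agtrl1 stands with the angiotensin receptors by symbol. Brs3, Nmur1 and Tacr2 lie far to the right of their family relatives.

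In Tacr2, Brs3 and Nmur1 the measured CpG was strongly methylated, unlike those of their family relatives. For Tacr2, the neurokinin A receptor of smooth muscle, the beta value was 0.807 in A2B5_mas and 0.746 in PSA-NCAM_mas. Its relatives Tacr1, the substance P receptor, had 0.0530 and 0.0613, and Tacr3, the neurokinin B receptor, 0.142 and 0.143. The tachykinin receptors thus spanned 0.719 in mean brain level. Brs3, the orphan bombesin-like receptor involved in energy balance, stood at 0.876 in the A2B5_mas array and at 0.842 in PSA-NCAM_mas. The neuromedin B receptor Nmbr had 0.112 and 0.114, and the gastrin-releasing peptide receptor Grpr 0.141 and 0.137, so this family spanned 0.746. Nmur1, the neuromedin U receptor best known from peripheral tissues, had 0.883 and 0.853. Nmur2, the neuromedin U receptor of the central nervous system, had 0.220 and 0.157, and the pair was 0.680 apart. By mean brain level Nmur1 ranked 9, Brs3 10 and Tacr2 18 among the 382 probes.

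The promoters of these 3 genes are shown with those of 1 less methylated relative each, because the contrast within families carries the result. The pairs were chosen after their values were seen. Each run is the 250 bases before an annotated gene start, 5′ to 3′ on the gene's strand, from RefSeq on GRCm38.p6, with each CG dinucleotide in capitals. Nmur1 has more than 1 annotated start, and both windows are shown.
Tacr2, chr10:62252188-62252437, plus strand: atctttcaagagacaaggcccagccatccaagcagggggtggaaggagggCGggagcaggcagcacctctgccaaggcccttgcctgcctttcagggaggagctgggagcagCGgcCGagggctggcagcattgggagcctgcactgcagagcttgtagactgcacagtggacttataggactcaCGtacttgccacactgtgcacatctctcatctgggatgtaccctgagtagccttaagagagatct
Tacr1, chr6:82402225-82402474, plus strand: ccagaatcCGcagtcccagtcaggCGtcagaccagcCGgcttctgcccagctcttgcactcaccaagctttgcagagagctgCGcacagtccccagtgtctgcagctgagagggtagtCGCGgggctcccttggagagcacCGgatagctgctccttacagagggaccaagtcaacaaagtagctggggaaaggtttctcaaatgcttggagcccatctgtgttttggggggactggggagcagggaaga
Brs3, chrX:57042824-57043073, plus strand: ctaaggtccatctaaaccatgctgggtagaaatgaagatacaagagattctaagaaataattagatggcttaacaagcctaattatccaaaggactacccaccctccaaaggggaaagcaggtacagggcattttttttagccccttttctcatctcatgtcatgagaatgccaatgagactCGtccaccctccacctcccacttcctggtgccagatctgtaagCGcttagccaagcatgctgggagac
Nmbr, chr10:14759697-14759946, plus strand: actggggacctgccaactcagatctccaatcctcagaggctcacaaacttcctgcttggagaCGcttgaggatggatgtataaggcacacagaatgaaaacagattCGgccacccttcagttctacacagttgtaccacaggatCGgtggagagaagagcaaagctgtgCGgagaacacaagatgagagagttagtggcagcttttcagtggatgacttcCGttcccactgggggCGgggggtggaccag
Nmur1, chr1:86388142-86388391, minus strand: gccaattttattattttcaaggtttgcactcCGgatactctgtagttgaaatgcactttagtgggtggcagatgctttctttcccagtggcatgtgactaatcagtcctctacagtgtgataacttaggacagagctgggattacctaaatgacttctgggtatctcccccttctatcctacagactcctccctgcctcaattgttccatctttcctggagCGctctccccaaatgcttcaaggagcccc
Nmur1, chr1:86389362-86389611, minus strand: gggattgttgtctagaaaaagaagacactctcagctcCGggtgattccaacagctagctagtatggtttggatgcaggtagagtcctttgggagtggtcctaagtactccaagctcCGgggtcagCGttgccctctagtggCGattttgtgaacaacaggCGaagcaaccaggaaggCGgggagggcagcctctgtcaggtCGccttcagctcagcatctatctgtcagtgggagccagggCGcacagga
Nmur2, chr11:56040988-56041237, minus strand: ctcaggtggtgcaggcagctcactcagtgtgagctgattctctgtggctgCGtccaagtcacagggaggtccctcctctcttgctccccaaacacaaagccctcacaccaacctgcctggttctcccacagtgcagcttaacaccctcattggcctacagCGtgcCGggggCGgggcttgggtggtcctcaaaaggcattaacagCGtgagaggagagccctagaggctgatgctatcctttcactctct

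The motif searched was CG, which reads the same on both strands and cannot overlap itself. The Tacr2 window held 4, the Tacr1 window 7 and that of Tacr3 7. The Brs3 window held 2, the Nmbr window 6 and that of Grpr 5. The Nmur1 windows held 2 and 8 and the Nmur2 window 5. Of all 32851 promoter windows in the RefSeq table, 92.1% held at least 1 CG, with a median of 6 and quartiles of 2 and 16. The methylated Tacr2 and Brs3 thus had the windows with fewest CGs in their families, and for neuromedin U the order depended on which Nmur1 start was taken. Avpr2, intermediate in both brain arrays, had 0 CGs in its window, against 12 for Avpr1a and 12 for Oxtr, both low. No window was given for Avpr1b. Few CGs also stood beside low methylation: the window of Mc1r held 2, as that of Brs3 did, against 12 for Mc3r, and Ntsr2 held 4 against 18 for Ntsr1, with each of these receptors low in both brain arrays. Mchr1, also low, held 4, as Tacr2 did. Which CG the array measured, and whether it lies in these windows, is not stated. The Avpr2 window held no CG, so the CpG measured for Avpr2 did not lie within it. A comparison of CG content with methylation over the whole group was not run, and the genes named here do not stand for it. A promoter was given for 32 of the 44 members (72.7%) and for 74.3% of all probes.

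Another 6 receptors had intermediate values in both brain arrays. Sstr5, a somatostatin receptor prominent in pituitary and pancreatic islets, was the highest of them, at 0.564 in A2B5_mas and at 0.517 in PSA-NCAM_mas. The other somatostatin receptors, which couple to inhibitory G proteins as Sstr5 does, were low: Sstr1 had 0.171 and 0.155 and Sstr3, the receptor found on neuronal primary cilia, 0.166 and 0.192. Sstr2 had 0.107 and 0.118, and Sstr4 had 0.0728 and 0.0642. The order of the family was therefore the same in both arrays except that Sstr1 and Sstr3 changed places.

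By beta value, the vasopressin and oxytocin receptors fell into a low and an intermediate pair. Avpr1a, the V1a receptor of brain and vessels, stood at 0.0685 in A2B5_mas and at 0.0811 in PSA-NCAM_mas, and the oxytocin receptor Oxtr 0.0716 and 0.0624. Avpr1b, the V1b receptor of pituitary corticotrophs, had 0.396 and 0.383. Avpr2, the V2 receptor of the renal collecting duct, had 0.410 and 0.378. The gap between the pairs was 0.324 in A2B5_mas and 0.297 in PSA-NCAM_mas, while receptors of the same pair differed by at most 0.0144 and 0.0186. The pairs were set by these same values, so the gap describes them and is no test of the grouping. Read on the curve of its own probe over the Met arrays, Avpr2 stood at 47.0% in A2B5_mas and 40.2% in PSA-NCAM_mas and Avpr1b at 19.2% and 17.2%, so the closeness of the intermediate pair did not hold on that scale.

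Cckar and Galr3 also had higher beta values than their responsive relatives Cckbr and Galr1. Cckar, the cholecystokinin receptor of gallbladder and pancreas, stood at 0.336 in A2B5_mas and at 0.284 in PSA-NCAM_mas, whereas Cckbr, the main cholecystokinin receptor of brain, had 0.0627 and 0.0577. Galr3 had 0.347 and 0.304, against 0.0711 and 0.0737 for the galanin receptor Galr1. The Galr2 probe had 0.0999 and 0.0841 but did not exceed 0.0848 on any Met array, so its low value is no comparison. Npy6r, a member of the neuropeptide Y receptor family, had 0.271 and 0.222, also on a probe that stayed flat over the Met arrays. The remaining neuropeptide Y receptors were low: Npy1r had 0.0653 and 0.0628 and Npy5r, the feeding-related receptor, 0.0505 and 0.0519. Npy2r, a presynaptic receptor, had 0.0710 and 0.0691. Ppyr1, now Npy4r, the pancreatic polypeptide receptor, had 0.0752 and 0.0804.

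In 8 families each member was low in both brain arrays. The lowest family median, taken over the mean of both brain arrays, was that of the neurotensin receptors at 0.0491, with Ntsr1 at 0.0420 in A2B5_mas and 0.0477 in PSA-NCAM_mas and Ntsr2 at 0.0532 and 0.0537. The melanocortin receptors followed at 0.0536 and were the most uniform of the families with more than 2 members, with a range of 0.0183. Mc3r, which acts in hypothalamic energy control, was the lowest receptor of all, with 0.0402 and 0.0401. Mc4r, the main melanocortin receptor of appetite control, had 0.0582 and 0.0568, the exocrine gland receptor Mc5r 0.0504 and 0.0488, and the pigment cell receptor Mc1r 0.0590 and 0.0578. Mc1r and Mc5r, known mainly from skin and glands, thus lay in the same narrow range as the hypothalamic receptors.

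Other low families held 1 to 3 members. Mchr1, the receptor for melanin-concentrating hormone, stood at 0.0659 in A2B5_mas and at 0.0531 in PSA-NCAM_mas. The delta opioid receptor Oprd1 had 0.0605 and 0.0718 and the kappa opioid receptor Oprk1 0.0992 and 0.0917. The endothelin receptors Ednra and Ednrb, which control vessel tone and neural crest and glial development, had 0.0591 and 0.0735 and 0.120 and 0.108. The highest value of these 5 receptors was thus the 0.120 of Ednrb in A2B5_mas. The orexin receptors of arousal control had 0.0830 and 0.0757 at Hcrtr1 and 0.152 and 0.156 at Hcrtr2. Npffr2, a neuropeptide FF receptor of pain modulation, had 0.118 and 0.150. The angiotensin receptors Agtr1a and Agtr1b had 0.151 and 0.168 and 0.0807 and 0.0984. Agtrl1, now Aplnr, is the apelin receptor and was included through its older symbol, with 0.169 and 0.128. Among the orexin and angiotensin receptors only Hcrtr1 and Agtr1b rose by at least 0.3 from Met_0 to Met_100. The low values of Hcrtr2, Agtr1a and Agtrl1 were therefore not read on their Met curves.

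Brain values were next set against Met_0, the array at the bottom of the Met series. In both brain arrays 4 members lay at least 0.2 above Met_0, where 14.9% of all probes did, and 4 at least 0.2 below it, where 6.81% of all probes did. Those above were Nmur1, with 0.0961 in Met_0, Tacr2 with 0.109, Brs3 with 0.215 and Avpr2 with 0.122. Sstr5, Avpr1b, Cckar and Galr3 were also above Met_0 but did not reach that size in both arrays: their Met_0 values were 0.393, 0.268, 0.166 and 0.106. For Galr3 the difference was 0.241 in A2B5_mas and 0.198 in PSA-NCAM_mas, just under the limit in the latter.

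The receptors at least 0.2 below Met_0 in both brain arrays were Hcrtr2, Ntsr2, Agtr1a and Npy2r. Hcrtr2 had 0.740 in Met_0, the highest value of any member there, against 0.152 and 0.156 in the brain arrays. Ntsr2, a neurotensin receptor abundant in astrocytes, had 0.609 in Met_0 against 0.0532 and 0.0537. Agtr1a had 0.555 against 0.151 and 0.168, and Npy2r had 0.471 against 0.0710 and 0.0691. Within the Met series Hcrtr2 and Agtr1a were highest in Met_0, so Met_0 was no low reference for these probes. Of the 44 members, 23 were below Met_0 by any amount in both brain arrays, as were 58.1% of all probes. Met_0 was thus not a floor for these CpGs.

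**Figure D2:**
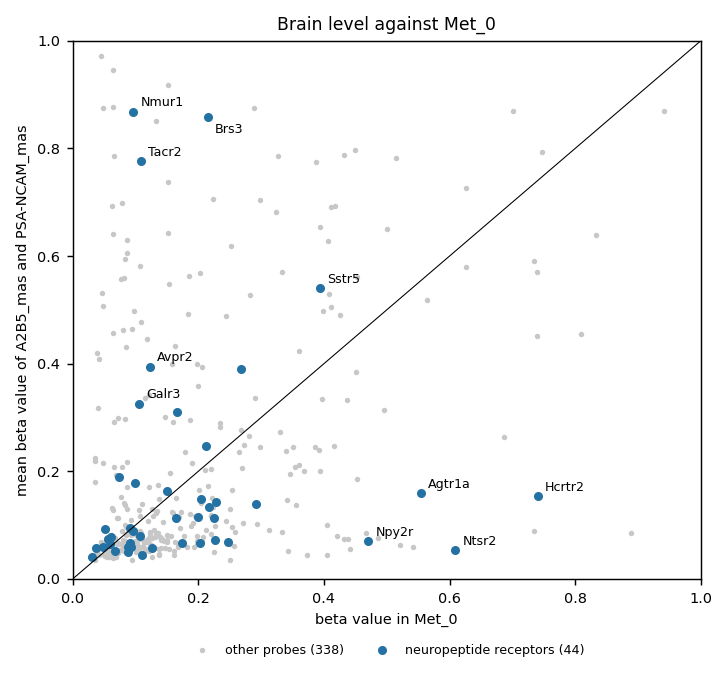
Mean beta value of both brain arrays (y axis) against the beta value in Met_0 (x axis) for the 44 receptor probes (blue) and the other 338 probes (grey), each point 1 probe, with the line of equality. Nmur1, Brs3 and Tacr2 lie at the upper left, and Hcrtr2, Ntsr2, Agtr1a and Npy2r at the lower right.

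The Met series shows how each receptor probe reads graded DNA, and so how its brain value can be read. The slope of the beta value on the title number, over the full series, was tested per probe against all 120 orders of the 5 arrays (exact two-sided permutation test, smallest possible p = 0.0167, Benjamini-Hochberg adjusted over the 382 probes). The beta value rose for 40 of the 44 members, where 87.7% of all probes rose, and fell for 0, where 1.57% of all probes fell. At an unadjusted exact permutation p under 0.05 the members that fell also numbered 0. The adjusted p of the exact permutation test was 0.0206 for the 35 members that were higher at every step, a pattern shown by 79.6% of all probes. It was 0.0373 for Galr1, Npy2r, Hcrtr1, Sstr2 and Avpr2, each of which had 1 step down. Because the probes share these 5 arrays, they are not independent of each other.

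The steepest rise among the members was that of Nmur2, from 0.0731 in Met_0 through 0.494, 0.678 and 0.758 to 0.935 in Met_100, with a slope of 0.796 ± 0.139 (SE of the line, n = 5 arrays). The median slope was 0.559 over the members and 0.536 over all probes. A rise of at least 0.3 from Met_0 to Met_100, called responsive, was found at 38 members and at 86.6% of all probes. Over these 38, Met_25 had covered a median of 59.7% of the rise, beside 59.8% over all 331 responsive probes. At Met_25, 24 of the 38 had covered more than 50% of their rise, as had 65.3% of all 331 responsive probes.

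The shape of the curve differed widely between members. Npy2r had covered 88.3% of its rise at Met_25, Sstr5 84.2% and Oprk1 83.1%. Cckar had covered only 10.3%, Mc3r 16.5%, Ntsr2 17.2% and Npy5r 20.3%. Within the melanocortin family Mc1r went from 0.0931 in Met_0 to 0.569 in Met_25 and 0.841 in Met_100. Mc3r went from 0.0312 to 0.142 and 0.702, and was still at 0.223 in Met_75. Mc5r took the same late course, from 0.0878 in Met_0 to 0.321 in Met_75 and 0.741 in Met_100. Mc4r rose more evenly, from 0.0373 through 0.227, 0.381 and 0.480 to 0.546.

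Of the 6 members that were not responsive, 4 did not pass the trend test. Galr2 had 0.0513 in Met_0 and 0.0553 in Met_100 (exact permutation test, adjusted p = 0.790). Npy6r had 0.212 and 0.203 (adjusted p = 0.936, exact permutation test) and stayed between 0.203 and 0.250. With no response over the Met series, the brain values of these probes cannot be read on its scale. Agtr1a had 0.555 in Met_0 and 0.480 in Met_100 (adjusted p = 0.511, exact permutation test), with 0.395 to 0.411 between. Hcrtr2 had 0.740 in Met_0, 0.416 in Met_25 and 0.664 in Met_100 (adjusted p = 0.983, exact permutation test). Agtr1a and Hcrtr2 shared this course, highest in Met_0. Agtrl1 rose from 0.204 to 0.394 and Sstr4 from 0.247 to 0.545, each by less than 0.3.

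**Figure D3:**
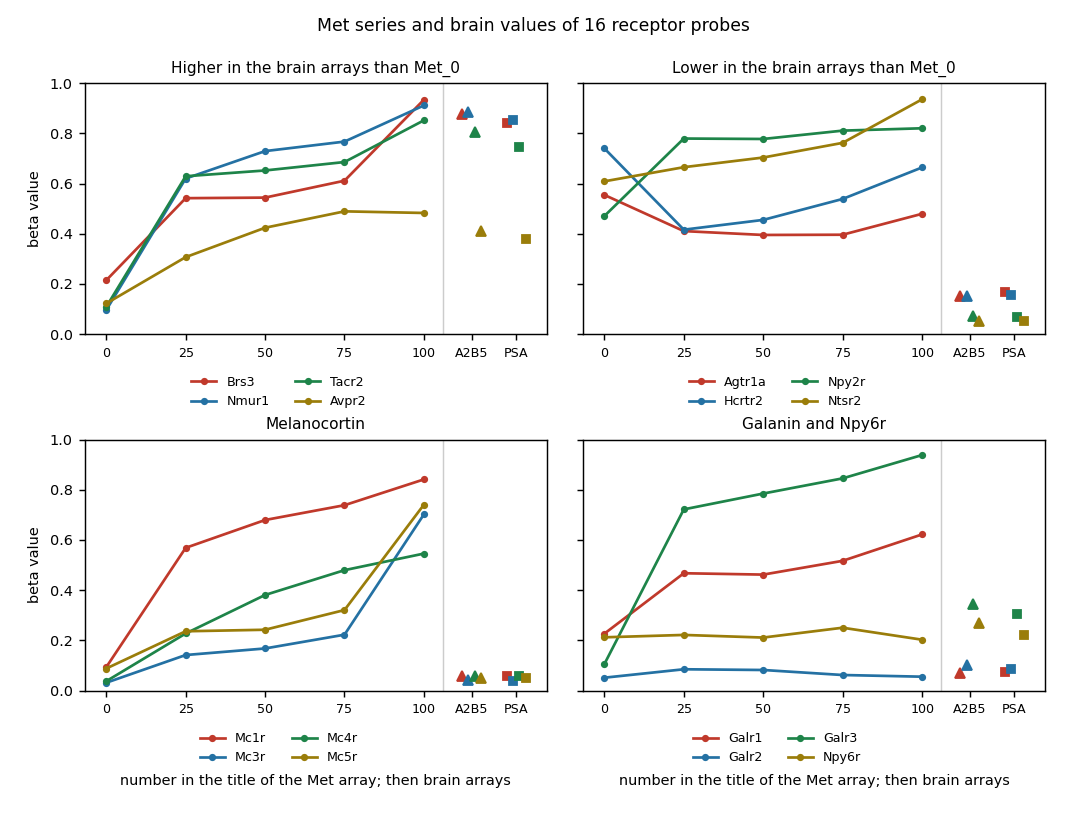
Beta values (y axis) of 16 receptor probes over the Met arrays (x axis, number in the title), with the value in A2B5_mas (triangles) and PSA-NCAM_mas (squares) at the right of each panel in the same colour; each point is 1 array without error. The upper panels hold the receptors at least 0.2 above or below Met_0 in both brain arrays; the lower panels show the different curves of the melanocortin receptors, and Galr2 and Npy6r, which stayed flat.

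Each brain value was then converted to percent by its position on the Met curve of the same probe, made monotone and linear between arrays. Of the 38 responsive members, 19 read 0% in both brain arrays, that is, at or below Met_0, as did 185 of all 331 responsive probes. Brs3 read 95.5% in A2B5_mas and 92.9% in PSA-NCAM_mas, Nmur1 95.1% and 89.9%, and Tacr2 93.2% and 84.0%. These 3 were the only responsive members at 50% or more in both arrays, where 8.76% of all 331 responsive probes were. Cckar read 49.1% and 39.1%, close to the readings of Avpr2 given above. Sstr5 read 13.2% and 9.60% and Galr3 9.77% and 8.04%, because both curves were already above 0.7 in Met_25. The order of the intermediate receptors therefore depended on the scale: Sstr5 was highest by beta value, and Cckar by the Met curve in A2B5_mas.

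A2B5_mas and PSA-NCAM_mas differed little from each other at these receptors. By a size of 0.2, 0 members were higher and 0 lower in A2B5_mas, as was 0% of all probes in either direction. By any amount, 27 members were higher in A2B5_mas, as were 65.2% of all probes. No test was possible with 1 array each. Differences ran from -0.0324 at Npffr2 to 0.0629 at Nmur2, with a median of 0.00221 over the members and 0.00429 over all probes. The median absolute difference was 0.0111 for the members and 0.0108 for all probes. The scatter of Met_50 about the midpoint of Met_25 and Met_75 over the 38 responsive members put the SD of a difference between 2 arrays at 0.0332. This gauge includes any curvature and any mixing error, and comes from higher beta values than those of most brain probes.

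At a size of 0.1, 0 members were higher in A2B5_mas, beside 2.09% of all probes. At a size of 0.05, 3 members were higher in A2B5_mas (6.82%, beside 12% of all probes) and 0 lower (beside 0.785% of all probes). They were Nmur2, with 0.220 against 0.157, Tacr2, with 0.807 against 0.746, and Cckar, with 0.336 against 0.284. Npy6r, with a difference of 0.0493, Sstr5 with 0.0469, Galr3 with 0.0427 and Agtrl1 with 0.0413 came just under it. Each of the 9 members with a mean brain level of 0.2 or more had the higher value in A2B5_mas. Of all 124 probes at those levels, 104 did. Of the 35 members under 0.2, 18 were higher in A2B5_mas, beside 56.2% of all 258 probes at those levels. Between 0.1 and 0.2 these were 5 of 12 members and 44 of 64 probes. Values higher in A2B5_mas at mean levels of 0.2 or more were thus found across the array and not in the receptors alone.

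**Figure D4:**
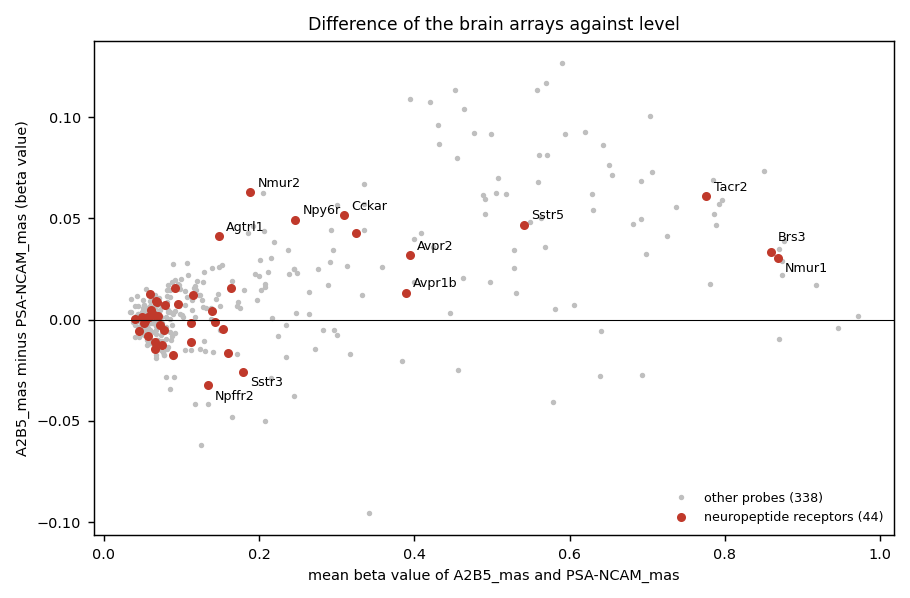
Beta value of A2B5_mas minus that of PSA-NCAM_mas (y axis) against their mean (x axis) for the 44 receptor probes (red) and the other 338 probes (grey), each point 1 probe. Receptor differences lie between -0.0324 and 0.0629, and the 9 receptors with a mean of 0.2 or more are all above the zero line.

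The genes of 3 members lie on the X chromosome in the RefSeq table. Brs3 and Avpr2 were among the more methylated receptors, with 0.876 and 0.410 in A2B5_mas, and Grpr, with 0.141, was low. In Met_0 they had 0.215, 0.122 and 0.292. The sex of the animals is not stated, so the part of X inactivation in these values was not tested. Glial and neuronal marker genes on the array give only methylation and no check of cell identity: the beta values in A2B5_mas and PSA-NCAM_mas were 0.640 and 0.549 for Gfap, and for Slc1a3 they were 0.234 and 0.237. The myelin gene Mbp had 0.0549 and 0.0647, Olig2 0.0750 and 0.0735, and Sox2 0.207 and 0.184. The neuronal genes Ncam1 and Camk2a had 0.0741 and 0.0791 and 0.0642 and 0.0742. How pure the brain samples were, and whether the receptor values come from the titled cells, was therefore not tested.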

How the data were processed

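The authors deposited 1 table of beta values (methylated fraction per CpG) for 382 probes on 7 arrays, taken as fractions because every value lay between 0.0282 and 0.972. The assay is named in the series' design text; the software, any background correction, scaling or filter, and the build of the design were not given in the labels, and a residual background or a scaling could shift the values. The number of arrays, 1 per title, limits the precision. Every member may be named, and non-members only as fixed cell type markers. Members and lists were chosen with earlier results of these data known. Symbols were matched to RefSeq (GRCm38.p6): 42 members carried a current symbol and 2 an older one. Promoter sequences are RefSeq's.

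Computations used Python 3.11.15, numpy 2.4.6, pandas 2.3.3, scikit-learn 1.9.0 (isotonic Met curves, linear between points) and matplotlib 3.10.9. Levels were low under 0.2 and high over 0.8. Slopes were tested by exact permutation; the code was tested on simulated data. Alternatives covered sizes, limits, scale and probes counted.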

Additional observations from a re-analysis of the deposited data

How the results depend on the processing

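Of 43 alternative values of the counts and of the median Met slope, 35 stayed near the value reported, within a factor of 1.5 for counts and within the median SE of 0.137 for the slope. That SE belongs to single probes and includes the curvature of their Met curves, so it is a wide limit for a median. Leaving out each Met array in turn gave median slopes from 0.332 (without Met_0) to 0.597, and 4 arrays cannot reach 0.05 in the exact test. The 7 intermediate members became 4 in PSA-NCAM_mas with limits of 0.3 and 0.7, and 2 in each brain array when read off the Met curves, which set values under Met_0 to 0. At a size of 0.05, 3 members in place of 0 were higher in A2B5_mas. At a size of 0.1 against Met_0, 8 members were higher and 10 lower in both brain arrays, in place of 4 and 4, and among responsive members 2 were lower, since Agtr1a and Hcrtr2 drop out by construction. Of 114 alternative values of family levels and single differences, 104 were classed as near the value reported and 10 as moved. Of the 10, 5 were family means drawn up by 1 high member such as Brs3 or Tacr2. The limit for family levels was narrower than the SD of 0.0332. The neuropeptide Y level, 0.0700 as a median and 0.102 as a mean, was classed as moved. No paired analysis was possible because each title has 1 array and the labels carry no replicate numbers. The planned comparison of promoter CG content with brain level was not run, and CG counts were given only for chosen genes. With 1 array per title, the SD of 0.0332 from the middle Met arrays was the only gauge of array error for the brain differences.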
